A study of Mus musculus with 44 samples.

Results

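The RNA recovered with an antibody against AUF1 from growing mouse myoblasts was compared, probe by probe, with the RNA of the same cell line before pulldown. The comparison used the 4 arrays labelled AUF1 pulldown of day 0 and the 5 arrays labelled input of day 0, chosen by those labels, 9 of the 44 arrays of the study. The 4 arrays of control IgG pulldown of day 0 served to mark which differences from input the control shared. Each array measured 25697 probes, of which 13160 were detected on at least 3 of these 13 arrays and were tested. The sources used here do not pair the probes with genes, so each is given by its Illumina identifier. Gene groups, probe sequences and myoblast markers were not analysed here.

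The cells were C2C12, an established mouse myoblast line that divides in serum-rich medium and forms multinucleate myotubes once serum is reduced. All 3 groups were C2C12 cells of day 0 in growth medium (DMEM with 10% serum and antibiotics). The labels give no other treatment or modification, and the groups differ in what was done to the lysate. For the pulldowns, detergent lysates were incubated with protein A beads carrying anti-AUF1 or control IgG, then treated with DNase and proteinase, and the RNA was extracted. Input RNA was taken without pulldown. The input titles say DNA, but every other field of those samples says RNA, which is how they are read here. All RNA was amplified with an oligo-dT primer and labelled with biotin, so the arrays read mainly polyadenylated RNA. In differentiation medium the study also sampled pulldowns (days 2, 4 and 6) and input (days 3 and 6). The sources used here do not say whether the arrays of a group came from separate cultures, and the p-values below measure only the spread between these arrays.

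AUF1 is encoded by Hnrnpd. It binds RNA, shuttles between nucleus and cytoplasm, and is best known for its contacts with AU-rich elements, mostly in untranslated regions of messenger RNA. Depending on the transcript, its binding has been linked to faster decay, to stabilisation or to altered translation. In an RNA immunoprecipitation, a transcript can be more abundant in the recovered RNA than in input through the antibody's target, or through RNA that sticks to beads or to any antibody. For that reason a pulldown with non-specific IgG is run in parallel. A signal here is always relative to the other probes of the same array, because the arrays were normalized to one common distribution, and a difference in the total amount of recovered RNA was not measured.

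Fewer probes were detected in the AUF1 pulldown than in input. A probe was counted as detected at a detection p-value under 0.05. The AUF1 arrays of experiments 1, 2, 3 and 4 detected 38.9%, 28.6%, 38.5% and 40.9% of the probes, a mean of 36.7% ± 5.51 (SD, n = 4), against 46.7% ± 0.742 (SD, n = 5) in input. All 4 AUF1 arrays lay below all input arrays, with a difference of -10.0 percentage points (two-sided exact permutation p = 0.0159, the smallest that 4 against 5 arrays allow, and 0.0317 after adjustment over 2 measures). The permutation test and the main fit below treat the 5 input arrays as separate units, although arrays 33 and 36 both carry experiment 1. The IgG arrays detected 46.3%, 34%, 43.2% and 44.7%, so the pulldowns of experiment 2 were the lowest with both antibodies. The mean deposited signal was 195 ± 53.4 (SD, n = 4) in AUF1 and 273 ± 55.3 (SD, n = 5) in input, a difference of -78.4 arbitrary units that did not pass the test (exact permutation p = 0.0635, also after adjustment). Across probes, the AUF1 array of experiment 2 had the lowest median correlation with the input arrays (0.73, against 0.82 to 0.89 for the other 3). The pulldown arrays carry the array numbers 1 to 26 and the input arrays 33 to 45, so array number and pulldown cannot be told apart.

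**Figure D1:**
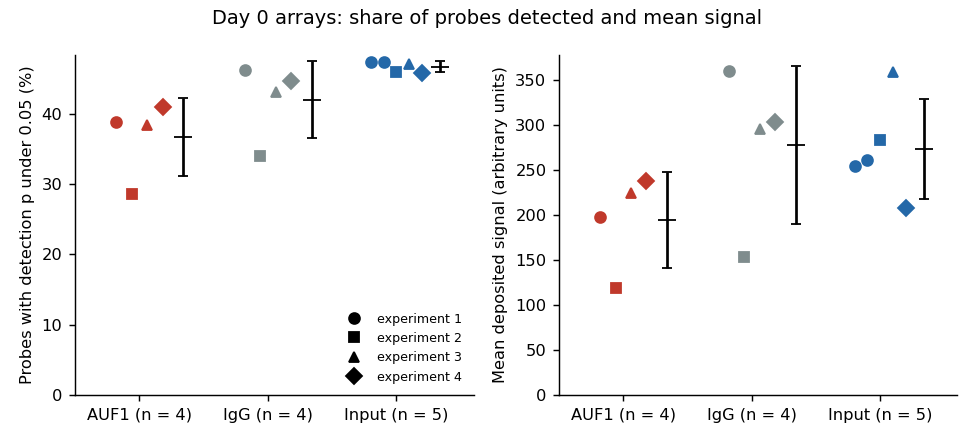
Share of the 25697 probes with a detection p-value under 0.05 (left, percent) and mean deposited signal (right, arbitrary units) on each day 0 array, with 1 point per array, shapes for experiments, and mean ± SD beside each group. The AUF1 arrays sit between 28.6% and 40.9% and all lie below the 5 input arrays, while the mean signals of the groups overlap.

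The composition of the AUF1 pulldown differed widely from that of input. With limma's moderated test and Benjamini-Hochberg adjustment over all 13160 probes, 5278 probes (40.1%) passed an adjusted p of 0.05, 2530 higher in the pulldown (19.2%) and 2748 lower (20.9%). The pulldown and input arrays did not overlap at all for 4679 probes (35.6%), and 4161 probes were both called and free of overlap. Among calls of at least 2-fold there were 1604 probes on the high side (12.2%) and 1874 on the low side (14.2%). At 4-fold and more the counts were 271 (2.06%) and 557 (4.23%), and at 8-fold and more 28 (0.213%) and 108 (0.821%). The low side therefore reached further: the differences ran from 4.58 down to -6.67 on the log2 scale, whereas the median over all tested probes was 0.01 and the quartiles were -0.60 and 0.59.

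The division of the calls into higher and lower depended on how the arrays were scaled. Of all calls, 47.9% were on the high side after quantile normalization. Scaling each array by its median moved the median over all probes by -0.54 and left 7.69% of the calls on the high side (352 up, 4225 down). With mean and SD scaling the shift was -0.11 and the share 36.7%. Of the 5278 called probes, 3034 and 4083 were called again in the same direction under these scalings. The detected share moved with the groups as given above. With that share as a covariate 1552 probes were called higher and 1319 lower, and 1910 of the 5278 were called again in the same direction. Without the AUF1 array of experiment 2 there were 2294 higher and 2345 lower calls, and without both pulldown arrays of that experiment 2769 and 2691.

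On single arrays, the called probes kept their side with few exceptions. The 2530 higher probes lay above their input mean by a median of 1.09, 1.52, 1.25 and 0.91 (log2) on the AUF1 arrays of experiments 1 to 4, and 99.0% to 100% of them were above it on each array. For the 2748 lower probes the medians were -1.19, -1.63, -1.34 and -0.97, and 99.7% to 100% of them lay below the input mean on each array. These probes were chosen on the same values, so the medians describe the size and are no test. The order of the arrays was the same on both sides, with experiment 2 farthest from input and experiment 4 nearest. Input arrays 39 and 45 leaned towards the pulldown in both sets, with medians of 0.09 and 0.05 from the input mean for the higher probes and -0.13 and -0.24 for the lower ones.

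Among the probes tested, and by abundance in input, the pulldown was relatively fuller at the dim end and emptier at the bright end. The tested probes were split into 4 bins of 3290 by their mean input level. In the lowest bin (log2 input level 4.27 to 5.03) 539 probes were higher and 110 lower in the pulldown. The counts were 707 and 789 in the second bin (up to 6.35), 754 and 872 in the third bin (up to 8.15) and 530 and 977 in the highest (up to 14.89). Of the probes in each bin, 19.7%, 45.5%, 49.4% and 45.8% were called. The median difference from input went from 0.20 through -0.03 and -0.09 to -0.25 (log2), so the highest bin stood -0.45 from the lowest. Probes dim in input could pass the detection filter through the pulldown arrays alone. In the lowest bin 268 probes were detected on no input array and 513 on all of them. The filter thus favours higher calls in that bin, and its counts describe the tested probes only.

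Among the same tested probes, this course with abundance was also seen with other input arrays but not with every way of ordering the probes. The 5 input arrays enter both the order and the difference. When the probes were ordered by the input arrays of day 3, which do not enter the difference, the bins' medians were 0.18, -0.01, -0.09 and -0.17. When they were ordered by the mean of the AUF1 and input levels, the medians were -0.03, 0.02, 0.04 and 0.04, and the highest bin stood 0.07 above the lowest. With 10 bins of input level the medians ran from 0.34 to -0.29, and the second-lowest bin stood at 0.07. All these orders used the probes that passed the same filter. The lowest of the 10 bins held all 268 tested probes detected on no input array of day 0, and the lowest day 3 bin held 245 of them. What the filter adds to the medians of the lowest bins was not tested. The direction between the ends was the same on each AUF1 array in the 4-bin split: 0.06 against -0.19 in experiment 1, 0.09 against -0.43 in experiment 2, 0.17 against -0.20 in experiment 3 and 0.09 against -0.15 in experiment 4. The IgG pulldown had medians of 0.16, 0.02, -0.06 and -0.25 in the same bins, against the same input arrays.

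**Figure D2:**
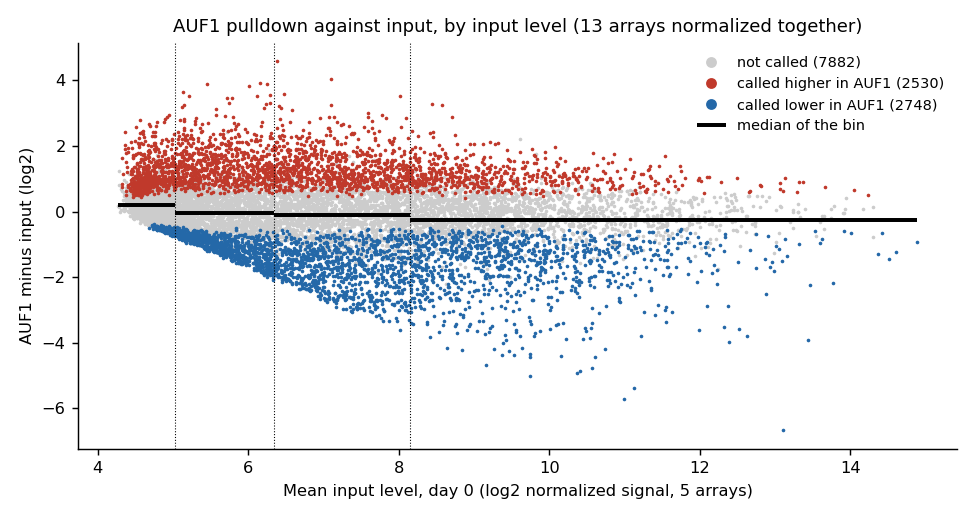
AUF1 minus input difference (log2) against the mean input level of day 0 (log2 normalized signal, 5 arrays), with 1 point per tested probe, dotted lines at the bin bounds and black bars at each bin's median. Called probes spread to both sides at every level, the medians go from 0.20 to -0.25, and the sloping lower edge is set by the 16 units added before taking logarithms, below which no probe can fall.

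The spread of the differences also changed along the abundance axis. Higher probes of at least 4-fold numbered 44, 120, 90 and 17 from the lowest to the highest bin, whereas lower probes of at least 4-fold numbered 0, 2, 276 and 279. A probe in the lowest bin cannot lie far below input, since 16 was added to every signal and log2 values end at 4. Among the 100 brightest input probes 15 were called higher and 32 lower, with a median difference of -0.31, and 99 of the 100 were detected on all 4 AUF1 arrays.

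Detection alone separated few probes completely. Of all 25697 probes, 6372 (24.8%) were detected on all 4 AUF1 and all 5 input arrays and 10674 on none of the 9. A set of 689 probes (2.68%) was detected on all input arrays and on no AUF1 array, of which 540 were detected on at least 1 IgG array and 149 on none. In the opposite direction 19 probes (0.0739%) were detected on all AUF1 arrays and on no input array, and all 19 were detected on at least 1 IgG array. Without experiment 2 these counts were 709 and 40. Among the calls, 2228 of the 2530 higher probes were detected on all 4 AUF1 arrays and 85 on no input array, and 705 of the 2748 lower probes were on no AUF1 array.

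The 6 probes that stood highest above input were ILMN_2882658, ILMN_2460136, ILMN_2481133, ILMN_3106592, ILMN_2664858 and ILMN_2754787. They were chosen among called probes whose AUF1 and input arrays did not overlap, so their differences are described and not tested again. None of them was among the brightest in input: 3 lay in the second and 3 in the third bin of input level. All 6 were detected on all 4 AUF1 and all 4 IgG arrays.

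ILMN_2882658 had log2 levels of 10.65, 11.09, 11.07 and 11.04 on the AUF1 arrays of experiments 1 to 4. On input arrays 33, 36, 39, 42 and 45 it had 4.94, 4.52, 7.44, 5.53 and 9.48, and on the IgG arrays 9.43, 10.34, 10.90 and 10.64. The AUF1 values were close together and all above input, but input ranged widely, with array 45 high and arrays 33 and 36, both of experiment 1, near background. In deposited units the probe read 773 to 2051 in AUF1 and 59.4 to 620 in input. The difference from input was 4.58 ± 0.78 (SE; limma adjusted p = 0.000484), a 24-fold ratio. It was 5.37 without input array 45, a 41.4-fold ratio, and 1 of the 5 input arrays did not detect the probe. The IgG pulldown stood 3.95 above the same input arrays.

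ILMN_2460136 had the same kind of spread. Its AUF1 levels were 11.05, 11.90, 10.77 and 10.90 and its input levels 5.39, 4.49, 8.11, 7.27 and 10.26. The AUF1 arrays were again above every input array, though input array 45 came close. The difference was 4.05 ± 0.87 (SE; limma adjusted p = 0.00248), a 16.6-fold ratio. It was 4.85 without input array 45 and 3.41 without input array 36. With the detected share as a covariate it was 2.57 and not called (limma adjusted p = 0.136, the highest of 27 alternative settings, which reached down to 1.74e-05). Its IgG levels of 10.69, 12.28, 10.81 and 10.58 spanned those of AUF1. ILMN_2481133 read 9.92, 10.53, 10.35 and 9.76 in AUF1 and 5.14, 4.60, 7.10, 6.23 and 8.19 in input, with a difference of 3.89 ± 0.55 (SE; limma adjusted p = 0.000144). Here too array 45 was the highest input array and array 36 the lowest.

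ILMN_3106592 varied little over the AUF1 arrays. It read 9.26, 9.37, 9.50 and 9.22 in AUF1 and 4.74, 4.70, 6.05, 6.25 and 5.52 in input, a difference of 3.88 ± 0.30 (SE; limma adjusted p = 4.18e-06). Every IgG array, at 10.10, 10.16, 9.79 and 9.78, lay above every AUF1 array. ILMN_2664858 read 8.60, 10.00, 8.60 and 7.92 in AUF1 and 4.73, 4.65, 5.01, 4.90 and 6.33 in input, a difference of 3.65 ± 0.49 (SE; limma adjusted p = 9.95e-05). ILMN_2754787 read 10.13, 11.01, 9.69 and 9.44 in AUF1 and 6.73, 6.57, 7.05, 6.65 and 5.40 in input, a difference of 3.59 ± 0.51 (SE; limma adjusted p = 0.000148). For the latter pair the AUF1 array of experiment 2 was the highest and that of experiment 4 the lowest, and among the IgG arrays too that of experiment 2 was the highest.

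**Figure D3:**
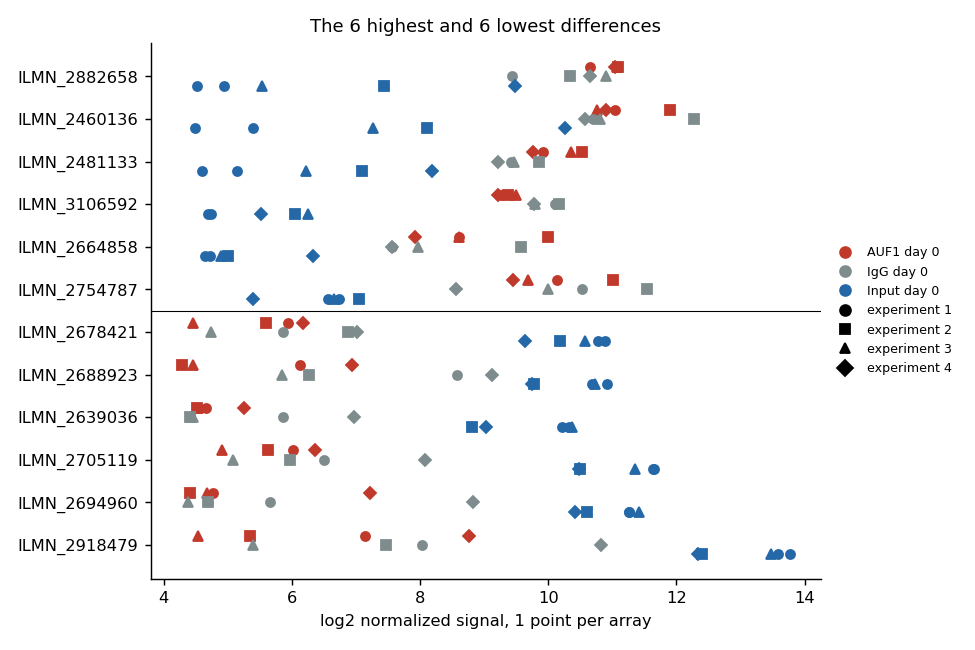
Normalized log2 signal of the 6 highest (top) and 6 lowest (bottom) probes on each day 0 array, with 1 point per array, colours for the groups and shapes for the experiments. AUF1 points lie apart from input for all 12 probes, and IgG points lie on the AUF1 side, except that the IgG array of experiment 1 (9.43) reaches input array 45 (9.48) for ILMN_2882658. The input points of ILMN_2882658 and ILMN_2460136 spread over 4.52 to 9.48 and 4.49 to 10.26.

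The 6 probes that stood lowest below input were ILMN_2918479, ILMN_2694960, ILMN_2705119, ILMN_2639036, ILMN_2688923 and ILMN_2678421. All 6 belonged to the highest bin of input level, were detected on all 5 input arrays and were detected on only 1 or 2 of the 4 AUF1 arrays.

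ILMN_2918479 had the lowest difference. In deposited units it read 12777, 11537, 6318, 15943 and 4093 on input arrays 33, 36, 39, 42 and 45, against 131, 60.9, 56.2 and 397 on the AUF1 arrays of experiments 1 to 4. On the normalized log2 scale these were 13.77, 13.58, 12.40, 13.47 and 12.33 in input and 7.14, 5.35, 4.54 and 8.77 in AUF1. The groups were far apart. Within AUF1 the array of experiment 4 was the highest, and only 2 of the 4 arrays detected the probe. The difference was -6.67 ± 0.95 (SE; limma adjusted p = 0.000144), and its size rests in part on AUF1 values at background. It was -6.00 without the AUF1 array of experiment 3 and -7.41 without that of experiment 4. Its IgG levels were 8.02, 7.48, 5.40 and 10.83, likewise lowest in experiment 3 and highest in experiment 4, and the IgG difference from input was -5.18 ± 0.95 (SE; limma adjusted p = 0.00116).

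ILMN_2694960 read 4.78, 4.41, 4.68 and 7.22 in AUF1 and 11.26, 11.25, 10.61, 11.41 and 10.41 in input, a difference of -5.72 ± 0.78 (SE; limma adjusted p = 0.00011). Only 1 AUF1 array detected it, and the difference was -6.37 without that of experiment 4. ILMN_2705119 read 6.02, 5.63, 4.92 and 6.36 in AUF1 and 11.64, 11.65, 10.50, 11.35 and 10.48 in input, a difference of -5.39 ± 0.50 (SE; limma adjusted p = 9.88e-06). ILMN_2639036 read 4.66, 4.52, 4.53 and 5.26 in AUF1 and 10.22, 10.32, 8.81, 10.37 and 9.02 in input, a difference of -5.01 ± 0.50 (SE; limma adjusted p = 1.58e-05). In these 3 probes input arrays 39 and 45 were the lowest of input, and experiment 4 was the highest of AUF1.

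The other 2 of the 6 gave a similar picture. ILMN_2688923 read 6.12, 4.28, 4.46 and 6.93 in AUF1 and 10.92, 10.68, 9.77, 10.73 and 9.75 in input, a difference of -4.92 ± 0.69 (SE; limma adjusted p = 0.000133). It was the one of the 6 whose IgG mean stood farthest above AUF1, with IgG at 8.57, 6.27, 5.85 and 9.12. The AUF1 minus IgG difference of -2.0 ± 0.73 (SE) was not called (limma adjusted p = 0.19, and 0.0696 with the experiment as a block). ILMN_2678421 read 5.94, 5.60, 4.47 and 6.18 in AUF1 and 10.77, 10.89, 10.18, 10.57 and 9.63 in input, a difference of -4.86 ± 0.46 (SE; limma adjusted p = 1.22e-05).

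The extremes within each bin of input level showed where room was left in each direction. In the lowest bin the highest were ILMN_1239726, with AUF1 at 8.08, 9.25, 7.32 and 6.56 and input at 4.50 to 5.46 (difference 2.89 ± 0.57, SE; limma adjusted p = 0.0014), and ILMN_2953515, with AUF1 at 7.60 to 7.82 and input at 4.50 to 5.40 (2.82 ± 0.23, SE; limma adjusted p = 5.33e-06). The first was spread widely over the AUF1 arrays and lost its call with the detected share as a covariate, and the second did neither. The lowest there, ILMN_2695662 and ILMN_1246126, differed by -0.74 ± 0.15 and -0.73 ± 0.20 (SE; limma adjusted p = 0.00199 and 0.0102). The second also lost its call with that covariate. Both were detected on no AUF1 array, which leaves no fold to give at this level of background.

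Deeper lows stood in the brighter bins. In the second bin ILMN_2683718 and ILMN_1232030 read 4.22 to 4.27 and 4.27 to 4.41 in AUF1, against 4.60 to 6.96 and 5.37 to 7.05 in input. Since no AUF1 array detected them, input was at least 2.16-fold and at least 2.17-fold higher, taking the lowest level of a detected probe on each AUF1 array. In the third bin the same bound was 6.97-fold for ILMN_2829171, with AUF1 at 4.25 to 4.79 and input at 7.02 to 8.68, and 5.98-fold for ILMN_2852380, with AUF1 at 4.36 to 4.63 and input at 6.47 to 8.56. In all 4 of these probes input array 45 was the lowest of the input arrays.

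Among bright probes the largest excess was smaller than at middle levels. ILMN_1225712 read 12.85, 13.04, 10.59 and 10.46 on the AUF1 arrays and 8.41, 8.23, 8.79, 8.54 and 8.26 in input, a difference of 3.29 ± 0.51 (SE; limma adjusted p = 0.000247). The AUF1 arrays fell into a high pair, experiments 1 and 2, and a low pair, experiments 3 and 4, both above input, and the IgG arrays at 13.08, 13.47, 12.64 and 11.89 were each above the AUF1 array of their experiment. ILMN_2785350 read 10.73, 11.15, 10.50 and 10.18 in AUF1 and 7.90 to 8.63 in input, a difference of 2.46 ± 0.25 (SE; limma adjusted p = 1.58e-05).

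The 3 brightest probes of input were all called lower in the pulldown, on a scale that leaves little or no room above them. ILMN_2964873 ranked first on every input array, so that its normalized level was 14.89 on all 5, without spread. That is the highest level quantile normalization allows. The pulldown could therefore not lie above input, and the call is no test of direction. In AUF1 the probe read 14.00, 13.57, 13.94 and 14.43, a difference of -0.91 ± 0.24 (SE; limma adjusted p = 0.00768). ILMN_2588052 differed by -1.23 ± 0.28 and ILMN_2986393 by -1.45 ± 0.35 (SE; limma adjusted p = 0.00318 and 0.00498), with no AUF1 array inside the input range. All 3 calls were lost with the detected share as a covariate, and all 3 directions turned under scaling by mean and SD, to 0.96, 0.50 and 0.17, so no direction is given for them beyond the quantile scale.

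Probes set apart by detection alone were named by their brightest examples. The brightest on all AUF1 arrays and no input array were ILMN_3061192, at 6.79, 7.47, 6.67 and 6.25 in AUF1, and ILMN_1213139, at 6.12, 7.33, 7.04 and 6.62. AUF1 was at least 4.40-fold and at least 4.36-fold higher than input. The first lost its call with the detected share as a covariate and under median scaling, and IgG detected the first on 3 and the second on all 4 arrays. The brightest on all input and no AUF1 array were ILMN_3149251, at 7.91 to 8.93 in input and 4.28 to 4.65 in AUF1, and ILMN_2659151, at 7.13 to 9.34 and 4.46 to 5.46. Input was at least 10.7-fold and at least 10.0-fold higher, and IgG detected the first on 2 and the second on all 4 arrays.

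Of the 5278 probes that separated the AUF1 pulldown from input, 3471 (65.8%) were called in the same direction with control IgG. Under median scaling this share was 45% (2059 of 4577), and without the IgG array of experiment 2 it was 50.3%. The IgG pulldown had 2196 probes above the same input arrays (16.7%) and 2310 below them (17.6%). Of the 2530 probes higher in AUF1, 1518 (60.0%) were called higher in IgG too, 1012 were not called and 0 were called in the opposite direction. Of the 2748 lower probes, 1953 (71.1%) were called lower in IgG too, 793 were not called and 2 were called higher. The AUF1 and IgG comparisons share the 5 input arrays, so these counts mark what the control shares and do not measure independent agreement. An IgG difference that missed the threshold does not show that IgG equalled input. The higher probes had median differences of 1.15 in AUF1 and 0.89 in IgG, and the lower probes -1.29 and -1.09 (log2).

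The share marked by IgG varied with input level. It was 41.9% of higher and 41.8% of lower probes in the lowest bin, and 69.7% and 69.8% in the second. In the third bin it was 66.0% and 76.3%, and in the highest 56.8% and 70.7%. The shares were thus lowest where input was dimmest, where the fewest probes were called in AUF1 as well (19.7%). In that bin the IgG difference had the same sign for 526 of the 539 higher and 110 of the 110 lower probes. These probes were chosen by AUF1 against the same input arrays, so agreement in sign is partly built in. The agreement over all probes of the bin is not given here. A share of calls depends on how many differences reach the threshold, so the lower share does not show that less was shared. Of the 15 higher and 32 lower probes among the 100 brightest, IgG marked 10 and 27. Of the 85 higher probes that no input array detected, 20 were called higher in IgG, and of the 705 lower probes that no AUF1 array detected, 222 were detected on no IgG array.

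**Figure D4:**
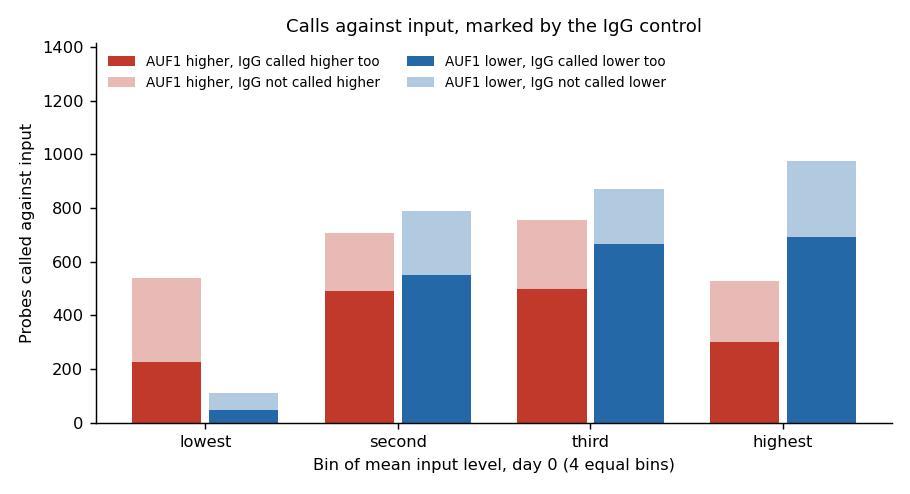
Number of probes called higher (red) or lower (blue) in AUF1 than in input, by bin of input level with 3290 probes each, with the dark part called in the same direction in IgG. The dark part holds 41.8% of the 110 lower probes in the lowest bin and 76.3% of the 872 in the third bin.

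Set directly against IgG, few probes were called apart. The AUF1 minus IgG comparison called 26 probes (0.198%), 1 higher (0.00760%) and 25 lower (0.190%), by limma with Benjamini-Hochberg adjustment. An unadjusted p under 0.05 was found for 2142 of the 13160 probes tested, a larger share than the 0.05 expected on average without any difference. A difference that missed the adjusted threshold therefore does not show that AUF1 equalled IgG. Same-numbered AUF1 and IgG arrays deviated together, and the counts so far come from the fit that does not use that pairing. With the experiment number of every array, input included, as a block, 41 probes were higher (0.312%) and 132 lower (1.00%). Of the 2530 probes higher than input, 1 was also called above IgG (39 with the block), and of the 2748 lower probes 17 were also called below IgG (58 with the block). These comparisons share the AUF1 arrays. The count of 18 probes apart from both, in the fit without the block, moved with single arrays. It was 0 without the AUF1 array of experiment 1 or 3 or the IgG array of experiment 1 (1842, 1711 and 1291 probes at an unadjusted p under 0.05), 3 without AUF1 of experiment 2, 11 without AUF1 of experiment 4, 9 without IgG of experiment 2, 1 without IgG of experiment 3, 161 without the IgG array of experiment 4, and 1 to 3 without input array 33, 36, 39 or 42.

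In the fit without the block, the 1 probe above both input and IgG was ILMN_2915166. It read 8.01, 7.98, 7.70 and 7.47 in AUF1, 6.50, 6.65, 6.65 and 6.78 in IgG and 6.82, 6.73, 6.55, 7.09 and 6.96 in input. On this normalized scale every AUF1 array was above every IgG and input array, and IgG and input overlapped. In deposited units the 3 groups overlapped, at 96.2 to 204.4 in AUF1, 83.1 to 204.5 in IgG and 139.7 to 273.3 in input. It stood 0.96 ± 0.18 above input (SE; limma adjusted p = 0.00095) and 1.15 ± 0.19 above IgG (SE; limma adjusted p = 0.0317, and 0.0402 with the block). The difference from IgG lost its call in 14 of 25 alternative settings, with adjusted p up to 0.649, and the difference from input was -0.15 under median scaling.

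In the same fit, the 3 probes farthest below IgG among those also below input were ILMN_1260383, ILMN_1247242 and ILMN_2930057. With the block their limma adjusted p against IgG was 0.00611, 0.0308 and 0.0299. ILMN_1260383 read 6.03, 4.44, 5.82 and 6.31 in AUF1, 8.40, 7.48, 8.64 and 7.96 in IgG and 8.51, 8.37, 7.17, 8.17 and 7.56 in input. AUF1 was below both without overlap, while IgG and input overlapped, and AUF1 stood -2.47 ± 0.41 from IgG (SE; limma adjusted p = 0.0317). ILMN_2930057 read 7.62, 7.34, 7.81 and 7.95 in AUF1, 10.10, 8.88, 10.55 and 9.17 in IgG and 8.77 to 9.28 in input, with -2.0 ± 0.32 from IgG (SE; limma adjusted p = 0.0317). For ILMN_1247242 the AUF1 arrays, at 6.23, 4.57, 4.68 and 6.11, were below all IgG arrays, but the array of experiment 1 was inside the input range of 6.19 to 7.05. All 3 lost their call against input with the detected share as a covariate. ILMN_1247242 lost it in 6 of 27 settings, among them those without the AUF1 array of experiment 2 or 3. The 3 calls against IgG were lost in 10, 10 and 12 of 25 settings for ILMN_1260383, ILMN_2930057 and ILMN_1247242.

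The day 6 arrays gave the same contrast in other samples. AUF1 (4 arrays) and input (5 arrays) of day 6, after differentiation medium, were normalized and fitted with the 13 day 0 arrays and 4 IgG arrays of day 6, and 14632 probes were tested. On day 6, 3206 probes were higher (21.9%) and 3197 lower (21.8%) than input. Of the 2530 probes higher on day 0, 1490 (58.9%) were higher on day 6, 76 lower and 964 not called, and of the 2748 lower probes 1737 (63.2%) were lower, 102 higher and 909 not called. Of the 271 probes at least 4-fold higher on day 0, 177 (65.3%) were higher on day 6, and of the 557 at least 4-fold lower, 479 (86.0%) were lower. Their median difference went from 2.29 to 1.35 and from -2.48 to -2.39. Median levels of the 271 probes were 8.45 in AUF1 and 5.99 in input on day 0 and 8.04 and 6.39 on day 6.

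The change of the difference from day 0 to day 6 was called for 2015 probes (13.8%) by limma with Benjamini-Hochberg adjustment, 1032 upward (7.05%) and 983 downward (6.72%). Among the probes called on day 0 it was called for 471 of the 2530 higher (18.6%, of which 381 moved against their day 0 direction and 90 further along it) and 526 of the 2748 lower (19.1%, 406 against and 120 further). It was called for 102 of the 271 probes at least 4-fold higher, 100 of them against, and for 71 of the 557 at least 4-fold lower. Because the probes were picked for a large day 0 value, and that value enters the change, a lean against the day 0 direction is built into these counts.

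At the top of the list, the highest differences of day 0 went with input levels that were much higher on day 6. ILMN_2882658 had a mean input level of 6.39 on day 0 and 13.56 on day 6, while AUF1 went from 10.94 to 12.48 and IgG from 10.32 to 12.79, so that the AUF1 difference from input went from 4.55 to -1.08. ILMN_2460136 went from 7.11 to 13.51 in input and from 11.13 to 12.92 in AUF1, and ILMN_2481133 from 6.26 to 11.70 and from 10.14 to 11.43. On day 6 none of these 3 was called (limma adjusted p = 0.157, 0.511 and 0.683), and each change was (limma adjusted p = 8.41e-05, 0.00195 and 0.000154). In these 3 probes the day 0 pulldowns of both antibodies, and input array 45, lay between the lowest day 0 input arrays and the day 6 level of input.

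Other probes of the same list were called on day 6 too. ILMN_3106592 stood 3.89 above input on day 0 and 2.75 ± 0.29 on day 6, and ILMN_2754787 3.58 and 2.82 ± 0.47 (SE; limma adjusted p on day 6 = 6.99e-08 and 3.25e-05). Their changes of -1.14 and -0.76 were not called (limma adjusted p = 0.0704 and 0.517). The IgG pulldown of day 6 stood 3.15 and 2.85 above the same input arrays. Of the 6 lowest probes, all were called lower on day 6, with ILMN_2918479 at -5.91 ± 0.92, ILMN_2694960 at -5.60 ± 0.67 and ILMN_2705119 at -4.70 ± 0.48 (SE; limma adjusted p = 1.32e-05, 3.83e-07 and 3.4e-08). For none of these 6 was the change from day 0 called. The IgG pulldown of day 6 differed from input by -5.73, -5.38 and -4.73 for ILMN_2918479, ILMN_2694960 and ILMN_2705119.

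**Figure D5:**
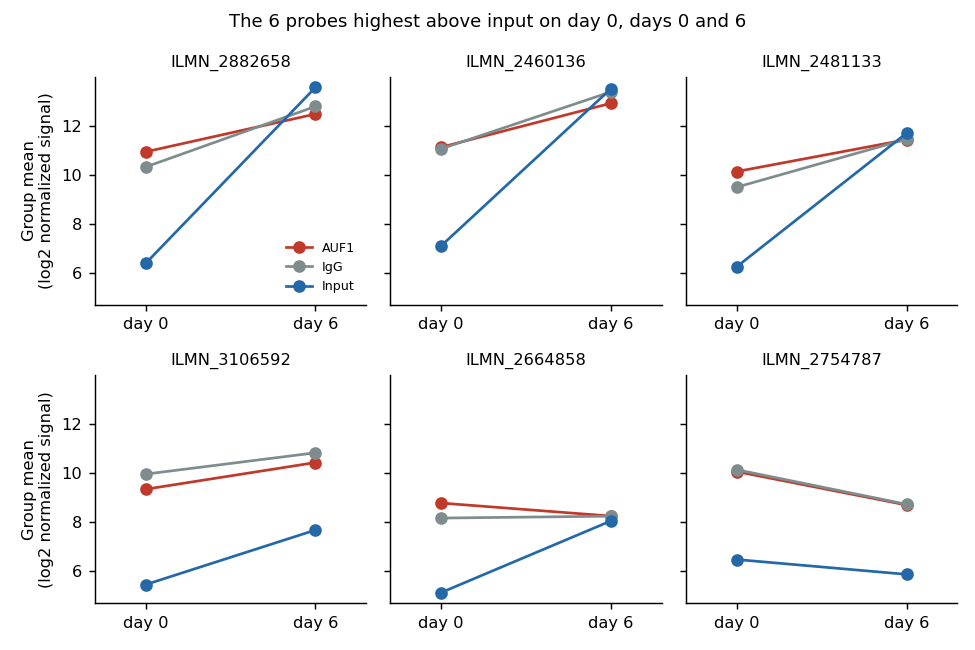
Group mean of normalized log2 signal on days 0 and 6 for the 6 probes highest above input on day 0, in AUF1 (4 arrays a day), IgG (4) and input (5). For the 3 probes of the top row input goes from between 6.26 and 7.11 to between 11.70 and 13.56, while for ILMN_3106592 and ILMN_2754787 the pulldowns remain above input.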

How the data were processed

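Per the file headers, the deposited values are signal intensities that the authors did not normalize, with a detection p-value per probe and array. GenomeStudio 1.6.0 is named by the submitters' processing notes. No source used here says whether it subtracted background. Columns were assigned to groups by their names, which give group, experiment and array number. For arrays, their number limits the precision.

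With limma 3.58.1 in R 4.3.3, the 13 arrays were background-corrected (normexp, negative controls inferred from detection p-values), 16 was added, and signals were quantile normalized and taken to log2. Probes with detection p under 0.05 on at least 3 arrays were fitted with a mean per group (lmFit, eBayes, 10 residual degrees of freedom). The array measures were set against each other by exact permutation. The steps were tested on simulated data. No probe could be named (0 identifiers matched the gene table), so tests ran on probes and the gene lists were not analysed here.

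Across probes, deviations of same-numbered AUF1 and IgG arrays from their group means correlated at 0.27, 0.72, 0.65 and 0.76, each over 0.1. These arrays were regarded as pairs, but only the fit with a block uses the pairing. Between AUF1 and input they ran from -0.22 to 0.02, and 2 input arrays carry experiment 1, so these were not taken as pairs. The main fit had no block, so its AUF1 minus IgG calls ignore the pairing. The fit with a block used the experiment number of every array, input included, so it also grouped input arrays with the pulldowns of their number. No fit that paired AUF1 and IgG arrays alone is given here.

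Probes named are the 6 highest and 6 lowest, and the 2 highest and 2 lowest per bin, among called probes without overlap. Added to these are up to 3 per direction called against both input and IgG, the 3 brightest in input and the 2 brightest of each complete detection class. Members, rules and lists were chosen with earlier results of these data known, and the day 6 test was added after seeing the data.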

Additional observations from a re-analysis of the deposited data

Results flagged for a closer look

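Of 105 groups of values (33 named probes on AUF1, IgG and input arrays, and the per-array measures), 9 held 1 array farther from the others than Dixon's limit, where chance gives about 1 in 20. The array of experiment 1 was low in AUF1 for ILMN_2882658 (10.65 log2). The array of experiment 4 was high in AUF1 for ILMN_2694960 (7.22), ILMN_1232030 (4.41) and ILMN_2829171 (4.79), high in IgG for ILMN_2829171 (6.09) and low in IgG for ILMN_1213139 (6.17). The IgG array of experiment 2 was high for ILMN_2460136 (12.28). Input array 45 was high for ILMN_2664858 (6.33) and low for ILMN_2683718 (4.60).

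The AUF1 difference from input changed between days 0 and 6, by the test of the change itself in limma, for 7 of the named probes. The change was -5.63 for ILMN_2882658, -4.61 for ILMN_2460136, -4.14 for ILMN_2481133, -3.45 for ILMN_2664858 and -2.86 for ILMN_2953515, with adjusted p of 8.41e-05, 0.00195, 0.000154, 0.000366 and 0.000231. It was -1.27 for ILMN_2785350 and 1.93 for ILMN_1232030, with adjusted p of 0.0029 and 0.00143. In 6 of these probes the mean input level was higher on day 6 than on day 0, and in ILMN_1232030 it was lower (6.34 and 4.48). The 33 probes were chosen by their day 0 values, which enter this change.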

How the results depend on the processing

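The numbers of probes higher and lower than input (2530 and 2748) and of those shared with IgG (3471) stayed within 1.5 times of these values except as follows. Median scaling gave 352, 4225 and 2059. Array weights gave 3887 higher and 5657 shared. The detected share as a covariate gave 1552, 1319 and 1927. Leaving out 1 array gave 2072 to 2774 higher, 2313 to 2970 lower and 2706 to 3844 shared.

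The 18 probes also apart from IgG became 153 with median scaling, 237 with mean and SD scaling, 53 without background correction, 61 with offset 50, 168 with the day 6 arrays in the fit, 398 with array weights, 426 with the covariate, 9 without the pulldowns of experiment 2 (chosen after seeing the data) and 0 to 161 without 1 array. With the replicate block, which grouped AUF1, IgG and input arrays by experiment number, there were 100, and no other count left its 1.5-fold range.

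The median of the highest minus the lowest bin (-0.45) was -1.08 with median scaling, -0.29 with mean and SD scaling, 0.067 when ordered by the mean of AUF1 and input, -0.63 between the ends of 10 bins, and -0.52 to -0.34 without 1 array. The difference in detected share was -11.4 to -7.31 points without 1 array (exact permutation p up to 0.0357). That in mean signal was -94.8 to -53.0 units, and passed without input array 45 (exact permutation p = 0.0286) and on the log2 scale (-0.25, p = 0.0476).

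Over 890 values of the 33 named probes against input, 868 kept direction and call, 18 lost the call (10 of them with the detected share as a covariate) and 4 turned. ILMN_2915166 turned to -0.15 with median scaling, and ILMN_2964873, ILMN_2588052 and ILMN_2986393 turned to 0.96, 0.50 and 0.17 with mean and SD scaling. Where a setting changed a result, the cause was not tested. Levels near 4 on the log2 scale are not well above background and give bounds only.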
